A study of Oryza sativa with 16 samples.

Results

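The response of rice seedlings to abscisic acid (ABA) was read from the 2 arrays of ABA-treated seedlings and the 4 arrays of water controls, chosen by their titles, which are 6 of the 16 arrays of the series. Seedlings of the indica rice variety IR64 were grown in liquid culture until they were 7 days old, with 14 h of light and 10 h of darkness a day. They were then placed for 3 h in 100 µM ABA or in water, and 5 µg of total RNA from each sample was labelled for the Affymetrix rice array. The water controls form 2 sets of 2 biological replicates, control1 and control2, and the labels do not say which set belongs with ABA. The labels name no transgene or mutant, and the hormone is the 1 difference they give between the groups. Changes are therefore given against all 4 controls, against each set alone, and against the mean of the 10 arrays from the other hormone treatments, which were IAA and BAP at 50 µM and ACC, SA and JA at 100 µM. The array reports bulk RNA of whole samples, in which fewer cells of a type and less RNA per cell cannot be told apart.

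ABA is the hormone with which plants respond to drought and salt and keep seeds dormant. It binds soluble receptors of the PYR/PYL family, the receptors then block clade A protein phosphatases 2C, and the SnRK2 protein kinases that these phosphatases had held inactive phosphorylate bZIP transcription factors and ion channels. In seedlings ABA is known for raising genes of desiccation tolerance and for slowing growth.

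Values are the deposited log2 values, 1 per probe set and array, and 24100 of 57194 rice probe sets were tested, those that exceeded 5 in 2 or more of the 16 arrays. A change is a difference of log2 means with its standard error (SE) from limma's fit, for n = 2 ABA and 4 control arrays, and a call is an adjusted p under 0.05. The control sets themselves differed in 5087 probe sets, 21.1% of those tested, and so did their spike-ins. The 5′ minus 3′ difference of the poly-A spike-ins was -1.31 and -1.34 in control1, -0.69 and -0.63 in control2 and -0.74 and -0.71 under ABA, so ABA lay with control2. The hybridization spike-ins had mean log2 values of 10.1 and 10.5 in control1, 11.3 and 12.4 in control2 and 10.5 and 10.5 under ABA, so ABA lay with control1. The 3′ minus 5′ difference of cyclophilin, a measure of RNA integrity, was 1.36 and 1.47 in control1, 1.64 and 1.76 in control2 and 1.66 and 1.68 under ABA. That of actin was 2.6 and 2.42 in control1, 3.16 and 3.13 in control2 and 3.18 and 3.33 under ABA. In both, ABA lay nearer to control2, while the difference of GAPDH was 0.71 to 0.77 in all of these arrays. The part of these differences in the results was not tested.

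ABA changed a large share of the measured transcripts, and falls outnumbered rises while the largest changes were rises. Of 24100 probe sets, 11585 (48.1%) were called against the 4 controls, 5114 (21.2%) higher and 6471 (26.9%) lower. Against control1 alone 12748 (52.9%) were called and against control2 alone 11911 (49.4%). In the same direction against each set, 9008 (37.4%) were called, 4050 higher and 4958 lower, and 124 were called in opposite directions. Both ABA arrays lay outside the range of the 4 controls for 14752 probe sets (61.2%). Against the mean of the other 5 hormones, whose arrays share no sample with the controls, 11951 (49.6%) were called, 5255 higher and 6696 lower. Without the second ABA array that last count was 7470, and the count against the 4 controls was 7803.

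The direction of the balance turned with the size of the change. At least 2-fold calls made up 21.7% of probe sets and numbered 2522 higher (10.5%) and 2705 lower (11.2%), at least 4-fold 1008 and 679, at least 8-fold 454 and 215, and at least 16-fold 249 and 56. The filter adds to the large rises, since 322 probe sets passed it only through the ABA arrays and 294 of them were called higher and 0 lower. Among probe sets that passed in the arrays of the other hormones alone, rises and falls numbered 2245 and 2692 at 2-fold, 786 and 677 at 4-fold, 293 and 215 at 8-fold and 136 and 56 at 16-fold. Probe sets with 1 named gene were called in 54.4% of 2641 cases, those with any single gene in 50.0% of 17396, and those for which the platform annotation gives no gene in 43.0% of 6630. The last group held 1303 rises and 1551 falls, and cannot be assigned to gene groups. Among 2031 genes with more than 1 tested probe set, 634 had all of them called in the same direction and 32 had calls in opposite directions.

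To see how the changes spread over expression levels, probe sets were grouped by their mean log2 value in the 10 arrays of the other hormones, which enter neither side of the comparison with the controls. The share called rose from 39.9% of 4112 probe sets at log2 5 to 7 to 46.3% at 7 to 9, 49.8% at 9 to 11 and 54.8% of 4907 at 11 and over. Over the same groups the median SE fell from 0.24 to 0.14 and the share called between the control sets went from 15.7% to 24.9%. The balance of directions moved with level. Rises made up 53% of calls at 5 to 7, 46.2% at 7 to 9, 43.9% at 9 to 11 and 29.6% at 11 and over, where 795 probe sets were higher and 1895 lower. The corresponding shares were 52.4% and 29.4% at the ends of this range against control1, 52.3% and 31.7% against control2, and 54.3% and 29.7% against the other hormones, whose arrays also set the groups in that last case. The median change over all probe sets, called or not, was -0.01 at 5 to 7 and -0.21 at 11 and over, against -0.07 overall.

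Called changes were smaller at high levels, where smaller changes can pass since the median SE was lower (0.24 at 5 to 7, 0.14 at 11 and over). Their median size was 1.2 log2 units at 5 to 7, 1.03 at 7 to 9, 0.83 at 9 to 11 and 0.72 at 11 and over. At least 8-fold rises numbered 103, 102, 37 and 7 in these groups, and falls 32, 98, 57 and 20. Over all probe sets, called or not, the quartiles of the change were -0.47 and 0.51 at 5 to 7. They were -0.59 and 0.16 at 11 and over. The lowest group, with a mean under 5, held 1215 probe sets, 450 of them higher and 129 lower. The filter shapes this group, since it holds all of the probe sets that passed only through the ABA arrays. Among the 771 members that passed in the arrays of the other hormones alone, 147 were higher and 104 lower, so rises made up 58.6% of calls in place of 77.7%. In all, 360 probe sets went from under 5 in the 4 controls to over 5 in both ABA arrays and 346 went the other way, and their sizes depend on the lowest values of the scale.

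**Figure D1:**
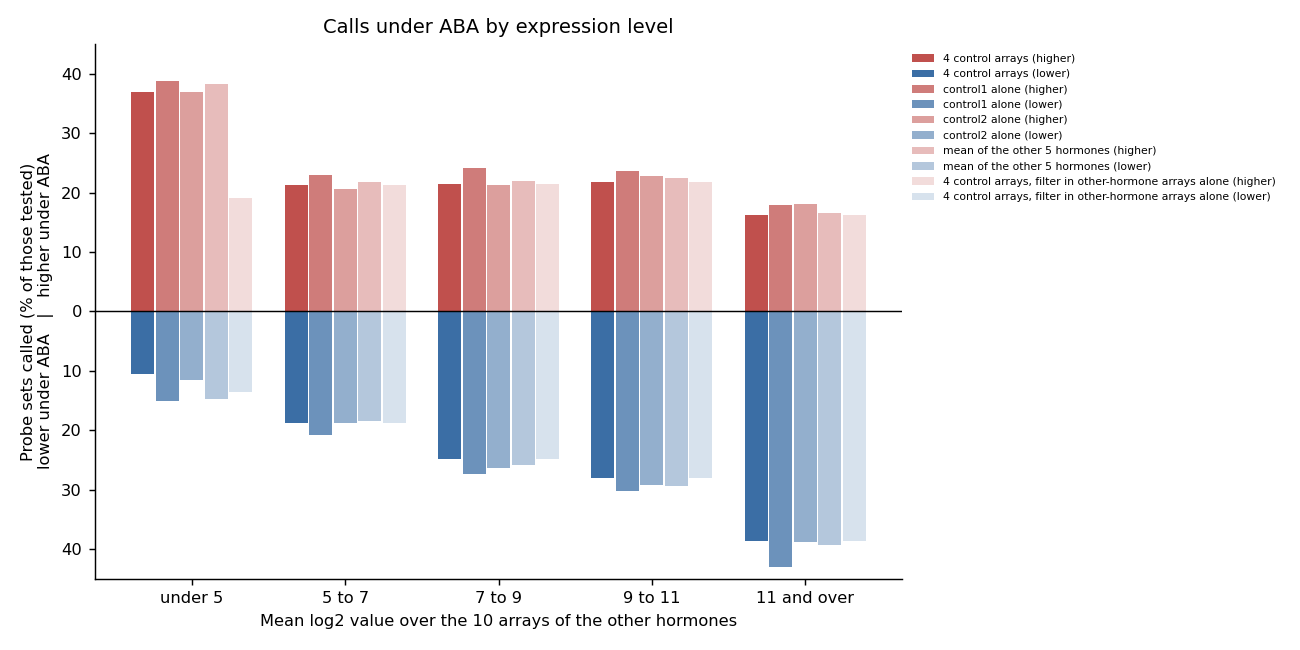
Percent of tested probe sets called higher (upwards) and lower (downwards) under ABA, by mean log2 value in the 10 arrays of the other hormones, against the 4 controls, each control set and the other hormones. The palest bars keep only probe sets that pass the filter in the other-hormone arrays alone, which changes the group under 5 from 450 to 147 rises and leaves the others nearly as they were.

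Genes with large changes were found at each level. In the lowest group the sugar transporter gene SWEET15 read 4.65 and 5.46 in control1, 2.39 and 2.74 in control2 and 11.88 and 12.17 under ABA, a rise of 8.22 ± 0.81. The largest rises at 5 to 7 and 7 to 9 included LTP-2 and AOS3, given with their groups. At 9 to 11 CSLA5, a cellulose synthase-like gene of the family that makes mannans, read 9.16 and 9.39 in control1, 9.18 and 9.22 in control2 and 13.95 and 14.18 under ABA and rose by 4.83 ± 0.12. In the highest group, SUS4, a sucrose synthase gene, read 10.55 and 10.83 in control1, 11.37 and 11.56 in control2 and 14.48 and 14.65 under ABA and rose by 3.49 ± 0.24. UGE-1, which encodes a UDP-glucose epimerase, read 11.79 and 11.97 in control1, 10.28 and 10.42 in control2 and 14.2 and 13.84 under ABA and rose by 2.91 ± 0.41. For these 4 genes both ABA arrays lay above all 4 controls, which the rule that picked them required. Falls in the lowest group were smaller in size, with CKX3, a cytokinin oxidase gene, at -1.29 and HAK13, a potassium transporter gene, at -1.43.

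The 15 largest rises among named genes outside the LEA and phosphatase 2C lists ran from 4.78 to 8.22 log2 units and covered transport, transcription, protein folding and metabolism. The conditions of this ranking (a call against all controls and each set, at least 2-fold, outside the control range) were met by 20.2% of all tested probe sets, and among named genes by 217 rises and 275 falls. Of the 15 rises, 3 passed the filter only through the ABA arrays. For such genes the filter itself selects a rise, so an adjusted p is no support for it. OsC3H10 and TIP3-2, and ITPK4 in the next paragraph, read under 5 in all 4 controls. No adjusted p is given for them. OsC3H10, a CCCH zinc finger gene, read 3.02 and 2.95 in control1, 3.06 and 3.07 in control2 and 10.21 and 10.13 under ABA, and rose by 7.14 ± 0.27. HSP18.6, a small heat shock protein gene, read 4.96 and 5.52 in control1, 5.18 and 5.2 in control2 and 12.61 and 13.11 under ABA, and rose by 7.64 ± 0.35 (adjusted p = 1.14e-08). LTP-2, a lipid transfer protein gene, read 5.68 and 5.31 in control1, 5.52 and 5.72 in control2 and 11.93 and 12.67 under ABA, and rose by 6.74 ± 0.32 (adjusted p = 1.51e-08). The control arrays of each of these 3 genes all lay below both ABA arrays, which the ranking required. MFT1, a gene of the MOTHER OF FT AND TFL1 family, which is known for its part in seed germination, read 5.14 and 6.31 in control1, 5.24 and 5.21 in control2 and 11.57 and 11.81 under ABA, and rose by 6.22 ± 0.31 (adjusted p = 2.04e-08). TIP3-2, a tonoplast aquaporin gene of a subfamily found in seeds, read 2.57 and 3.31 in control1, 2.43 and 2.59 in control2 and 8.22 and 8.72 under ABA, and rose by 5.75 ± 0.25. Its relative TIP3-1 rose by 4.72 ± 0.35. PDHE1-A (LOC4340640), which encodes the E1 alpha subunit of pyruvate dehydrogenase, read 5.19 and 5.54 in control1, 4.58 and 4.35 in control2 and 11.1 and 11.64 under ABA, and rose by 6.46 ± 0.33 (adjusted p = 2.95e-08).

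The remaining rises of this ranking were those of SWEET15, of the homeodomain-leucine zipper genes HOX24 and HOX7, and of HSF01, OsPP2C59, AOS3, ITPK4, ELA3 and CSLA5. HOX7 read 6.12 and 6.1 in control1, 6.05 and 5.91 in control2 and 10.75 and 10.9 under ABA, and rose by 4.78 ± 0.12 (4.71 against control1 and 4.84 against control2). OsPP2C59, a phosphatase 2C gene that the clade A list did not hold, rose by 6.55 ± 0.48. ITPK4, an inositol phosphate kinase gene, read 8.26 and 8.28 under ABA and 2.67 to 2.77 in the controls. ELA3 read 13.46 and 13.58 under ABA and 7.54 to 8.99 in the controls. Against the other hormones the 15 genes differed by 4.62 to 8.17.

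The 15 largest falls, with changes from -3.56 to -6.79, included genes of nutrient uptake, cell walls and growth. Lsi2, the silicon efflux transporter gene of roots, read 11.71 and 11.27 in control1, 12.61 and 12.34 in control2 and 6.17 and 4.22 under ABA, and fell by 6.79 ± 0.56 (adjusted p = 1.54e-06). ZIP3 (LOC4336971), a zinc transporter gene, read 8.48 and 7.73 in control1, 9.04 and 8.25 in control2 and 3.34 and 3.89 under ABA, and fell by 4.76 ± 0.32 (adjusted p = 2.89e-07). DUR3, a urea transporter gene, read 7.66 and 8.13 in control1, 7.54 and 7.43 in control2 and 3.11 and 3.12 under ABA, and fell by 4.58 ± 0.29 (adjusted p = 1.77e-07). In each case both ABA arrays lay below every control array, which the ranking required. The iron transporter gene IRT1 read 9.86 and 11.54 in control1, 8.77 and 8.23 in control2 and 5.53 and 5.76 under ABA, and fell by 3.96 ± 0.68. NRT2.3, a nitrate transporter gene, fell by 3.56 ± 0.55 (-4.43 against control1 and -2.68 against control2). Both of these genes were higher in control1 than in control2. PRX112, a peroxidase gene, fell by 4.51 ± 0.27, and GLU14, an endoglucanase gene, by 4.03 ± 0.29. ILI6, a helix-loop-helix gene of a family that promotes cell elongation, read 7.91 and 8.02 in control1, 8.0 and 7.86 in control2 and 3.97 and 3.92 under ABA, and fell by 4.01 ± 0.27 (adjusted p = 2.59e-07). PORA, which encodes the light-dependent protochlorophyllide oxidoreductase of greening leaves, read 13.22 and 13.28 in control1, 11.91 and 12.56 in control2 and 8.72 and 8.29 under ABA, and fell by 4.24 ± 0.33 (adjusted p = 1.09e-06). The other genes of the ranking were AOS4, CslF8, RPA1B, EXPB11, EXP2 and EXP8, described with their groups.

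**Figure D2:**
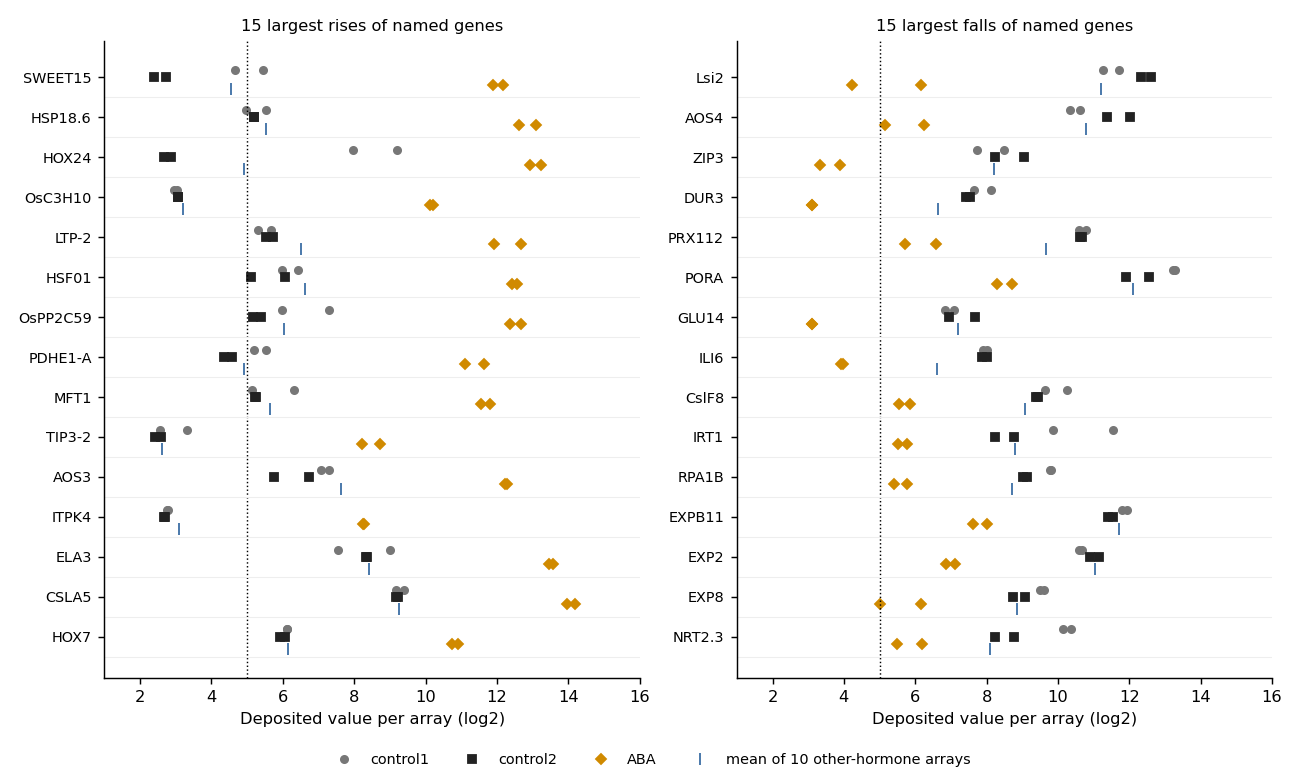
Deposited log2 value in each ABA and control array, and the mean of the 10 arrays of the other hormones (blue tick), for the 15 largest rises (left) and falls (right) of named genes outside the LEA and clade A phosphatase lists. Diamonds (ABA) lie clear of all control points in each row by the ranking rule, while the distance between control1 (circles) and control2 (squares) differs from gene to gene, and the dotted line marks the log2 value of 5 used by the filter.

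Gene groups were described over 14941 genes with 1 probe set each, of which 51.1% were called against the 4 controls, 22.1% higher and 29.0% lower, with a median change of -0.08. Against each control set in the same direction 40.6% were called, 2641 genes higher and 3429 lower. Against control1 alone 24.1% were higher and 31.4% lower, and against control2 alone 22.5% and 30.5%. The members of the 64 lists and 3 marker lists were found by name, and of the 2191 tested genes with a name 55.9% were called, 20.9% higher and 35.1% lower, with a median change of -0.15. The lists are read against these shares of named genes. A bracket after a count gives rises and falls against each control set. Lists of LEA proteins (9 of 10 higher) and clade A phosphatases 2C (7 of 7 higher) serve only as a reference. In brackets after a gene name, the first value is the change against the 4 controls and the next ones those against control1 and control2.

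**Figure D3:**
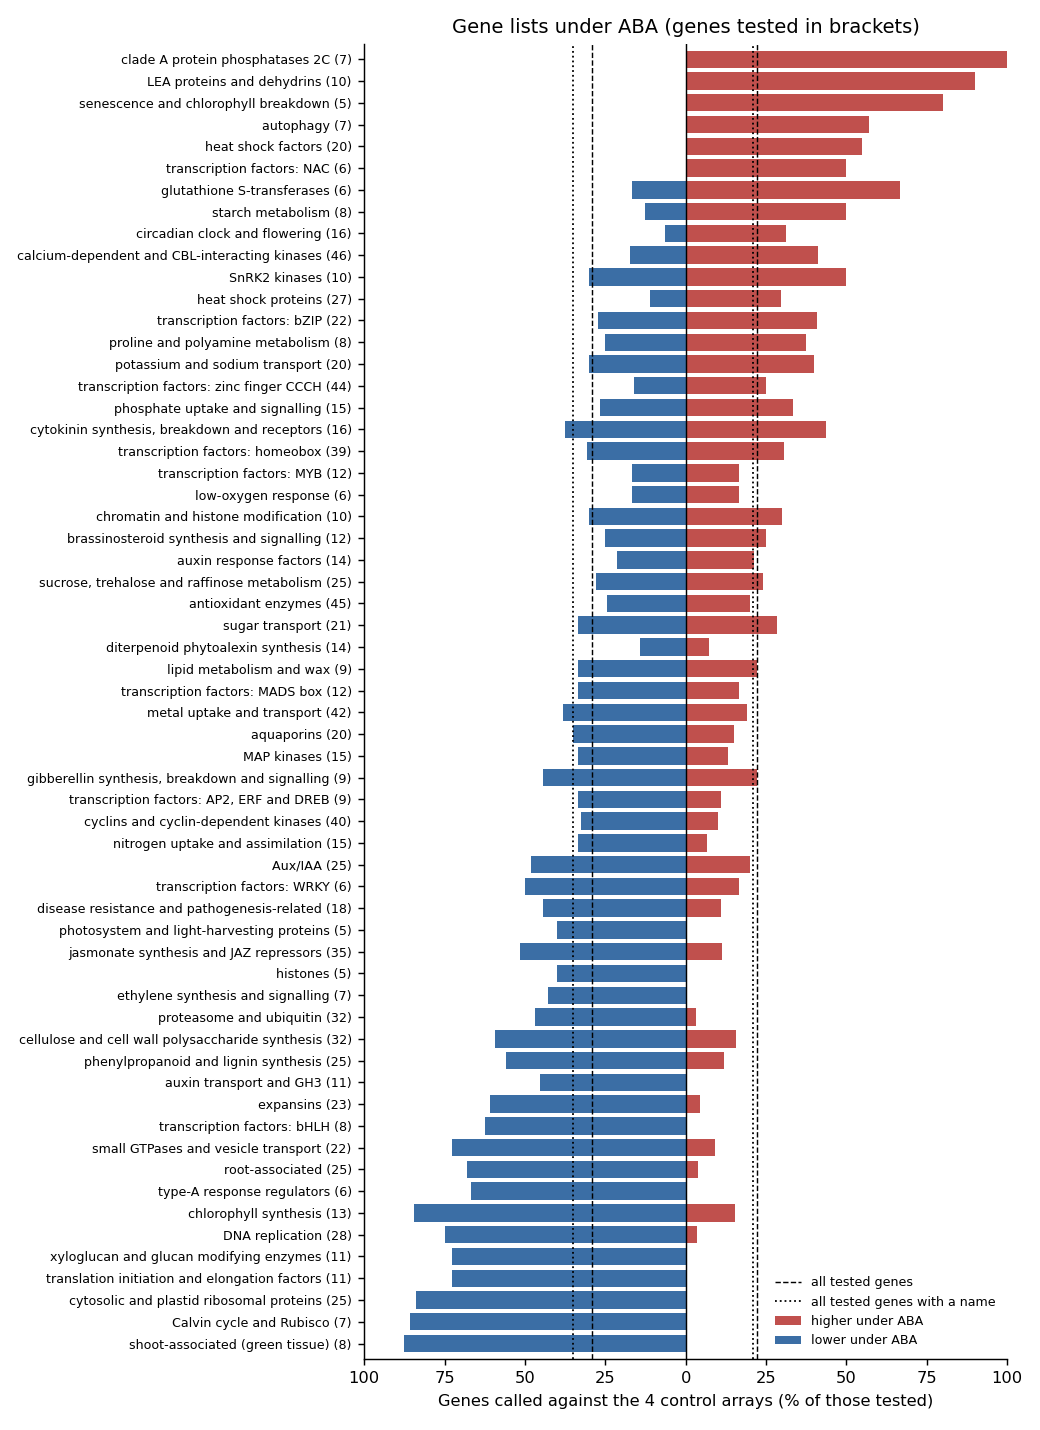
Percent of the tested genes of each list called higher (red, right) and lower (blue, left) against the 4 control arrays, for lists with at least 5 tested genes, ordered by the difference. Dashed lines mark the shares over all tested genes, 22.1% higher and 29.0% lower, and dotted lines those over the genes with a name, 20.9% and 35.1%.

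Kinases of the ABA pathway moved in both directions. Among 10 SnRK2 genes, 5 rose and 3 fell (5 and 3 against control1, 5 and 3 against control2). SAPK1 read 9.72 and 10.2 in control1, 9.56 and 9.41 in control2 and 12.12 and 12.31 under ABA, and rose by 2.49 ± 0.18 (adjusted p = 4.29e-07). Other rises were those of SAPK10 (1.74, 1.93, 1.56), SAPK3 (0.91, 0.96, 0.86) and RK1 (1.02, 0.95, 1.09). The kinase gene sapk2 moved the other way, reading 11.78 and 11.94 in control1, 11.72 and 11.57 in control2 and 10.25 and 10.49 under ABA, and fell by 1.38 ± 0.14. The ABA and control arrays of SAPK1 and sapk2 did not overlap, which held for 61.2% of all tested probe sets. The single receptor gene tested, PYL11, fell by 0.95 ± 0.14 (-0.79 against control1 and -1.1 against control2). All 3 tested genes of ABA synthesis and breakdown rose (3 and 0 against control1, 2 and 0 against control2), 2 of them at least 2-fold. Their median was 2.64 (2.49 against control1 and 2.79 against control2). Below that median, the synthesis gene ABA1, for zeaxanthin epoxidase, rose by 0.91 ± 0.29 (adjusted p = 0.0211), by 1.24 against control1 and by 0.58 against control2, where the adjusted p was 0.104. The kinases that read calcium signals were among the lists with a high share of rises. Of 46 genes, 19 rose and 8 fell (19 and 11 against control1, 19 and 11 against control2), and 17 higher and 8 lower passed against each control set. CIPK12 read 3.3 and 3.54 in control1, 2.88 and 2.61 in control2 and 6.39 and 7.03 under ABA, and rose by 3.63 ± 0.25. The calcium sensor genes CBL10 (1.54, 1.54, 1.54) and CBL3 (1.0, 0.89, 1.11) and the kinase gene CIPK11 (1.17, 1.06, 1.27) rose, while the kinase gene CPK1 (-1.54, -1.67, -1.4) fell. Of 15 MAP kinase genes, 2 rose and 5 fell (2 and 7 against control1, 3 and 4 against control2, 2 and 3 against each), with BIMK2 (0.6, 0.71, 0.49) and MPK11 (0.57, 0.73, 0.42) higher and MPK6 (-0.46, -0.35, -0.57) lower.

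Transcription factor families are given by their counts, since differences between families were not tested. Of 22 bZIP genes, the family through which ABA acts on promoters, 9 rose and 6 fell (7 and 5 against control1, 8 and 5 against control2). TRAB1, which binds ABA response elements, read 10.7 and 10.85 in control1, 10.43 and 10.35 in control2 and 12.38 and 12.19 under ABA, and rose by 1.7 ± 0.15. Falls of the family included BZIP06 (-2.71, -2.77, -2.64), BZIP02 (-1.61, -1.86, -1.35) and BZIP50 (-0.97, -0.92, -1.02). Of 6 NAC genes, 3 rose and 0 fell (4 and 0 against control1, 3 and 0 against control2), namely NAC2 (3.69, 3.77, 3.61), NAC048 (2.12, 2.17, 2.07) and NAC071 (0.94, 0.97, 0.9). NAC048 read 9.95 and 10.15 in control1, 9.98 and 10.32 in control2 and 12.24 and 12.21 under ABA. Among 39 homeobox genes, 12 rose and 12 fell (11 and 18 against control1, 12 and 9 against control2). The family held HOX24 and HOX7, and also Roc4 (3.14, 2.96, 3.31), hox29 (2.68, 2.7, 2.66) and HOX1 (2.57, 3.05, 2.09) among the rises and HOX2 (-1.39, -1.51, -1.28) among the falls. CCCH zinc finger genes gave 11 rises and 7 falls among 44 (10 and 9 against control1, 12 and 5 against control2). Their changes were large at both ends, with OsC3H35 (3.21, 2.96, 3.46) and OsC3H37 (2.99, 2.66, 3.31) next to OsC3H10 and, on the other side, OsC3H23 (-3.37, -3.66, -3.07). The basic helix-loop-helix list gave 0 rises and 5 falls among 8 genes (0 and 5 against control1, 0 and 5 against control2), among them ILI6, BHLH172 (-2.18, -2.74, -1.62), BHLH148 (-1.43, -1.59, -1.26), bHLH081 (-1.14, -1.29, -0.98) and BHLH063 (-0.62, -0.61, -0.63). Of 6 WRKY genes, 1 rose and 3 fell (0 and 3 against control1, 1 and 3 against control2). WRKY62 read 6.76 and 5.93 in control1, 7.47 and 7.44 in control2 and 3.46 and 4.34 under ABA, and fell by 3.0 ± 0.39. The drought factor gene DREB2A read 5.14 and 5.06 in control1, 4.89 and 4.46 in control2 and 6.74 and 7.23 under ABA and was the 1 rise among 9 genes of its family, in which 3 fell (2 and 5 against control1, 1 and 1 against control2, 1 and 1 against each).

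Heat shock factors rose without a fall, 11 of 20, with a list median of 1.17 (0.85 against control1 and 1.2 against control2). Against control1 alone 8 rose and 1 fell, and against control2 alone 12 rose and 2 fell. HSF01 read 5.99 and 6.44 in control1, 6.06 and 5.11 in control2 and 12.41 and 12.55 under ABA. HSF03 read 5.49 and 5.69 in control1, 7.16 and 6.99 in control2 and 11.3 and 10.65 under ABA, and rose by 4.64 ± 0.45. HSF05 read 9.16 and 9.9 in control1, 8.12 and 7.89 in control2 and 13.23 and 13.16 under ABA, and rose by 4.42 ± 0.44. In all 3 genes the ABA arrays lay above the controls, while the distance to each control set differed. Over all tested probe sets, 61.2% had both ABA arrays outside the control range. Of 27 heat shock protein genes, 8 rose and 3 fell (8 and 4 against control1, 9 and 2 against control2), so most did not pass. The chaperone gene CLPD1 rose by 2.5 ± 0.21. Within the small heat shock proteins the direction was not shared, since HSP18.8 read 13.35 and 13.35 in control1, 13.65 and 13.71 in control2 and 10.19 and 10.38 under ABA, and fell by 3.23 ± 0.14, opposite to HSP18.6. BIP1, the chaperone of the endoplasmic reticulum, fell by 1.57 ± 0.09 (-1.51 against control1 and -1.63 against control2).

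Falls outnumbered rises against the 4 controls in the lists of genes for other hormones, as they did over all named genes, except those of auxin response factors and brassinosteroids, where both were equal in number, and of cytokinin synthesis, breakdown and receptors. The type-A response regulators, which cytokinin induces early and which act against its signalling, had 0 rises and 4 falls among 6 (0 and 4 against control1, 0 and 5 against control2), with a median of -1.21 (-1.03 against control1 and -1.4 against control2). RR9 read 9.48 and 10.1 in control1, 10.76 and 10.5 in control2 and 6.7 and 6.63 under ABA, and fell by 3.55 ± 0.53. RR2 read 7.59 and 7.51 in control1, 8.23 and 8.66 in control2 and 4.73 and 4.62 under ABA, and fell by 3.32 ± 0.36. The values of both genes under ABA lay below all controls, where 61.2% of all tested probe sets lay outside the control range. Among 16 other cytokinin genes, 7 rose and 6 fell (7 and 6 against control1, 5 and 6 against control2). The receptor genes went apart, with HK3 (1.42, 1.26, 1.58) higher and HK4 (-2.87, -3.16, -2.57) lower, and so did the oxidase genes CKX11 (1.99, 1.85, 2.13) and CKX3. HK4 read 8.73 and 8.88 in control1, 8.24 and 8.2 in control2 and 5.82 and 5.48 under ABA. Among 25 Aux/IAA repressor genes of auxin signalling, 5 rose and 12 fell (5 and 12 against control1, 6 and 12 against control2), with IAA12 (-2.02, -2.1, -1.93), IAA23 (-1.76, -1.7, -1.81), IAA7 (-1.44, -1.62, -1.26) and IAA8 (-1.39, -1.36, -1.42) lower and IAA24 (1.08, 0.99, 1.18) higher. Auxin efflux carrier and GH3 conjugation genes gave 0 rises and 5 falls among 11 (0 and 6 against control1, 0 and 5 against control2), among them PIN3A (-1.79, -2.11, -1.47), PIN2 (-1.07, -1.14, -1.01) and GH3.5 (-1.94, -2.03, -1.84). GH3.5 read 11.03 and 11.04 in control1, 10.91 and 10.78 in control2 and 8.87 and 9.14 under ABA. The jasmonate list holds GH3.5 too, so its fall counts in both lists and cannot be assigned to auxin alone. Auxin response factors gave 3 rises and 3 falls among 14 (3 and 6 against control1, 2 and 2 against control2). Of 9 gibberellin genes, 2 rose and 4 fell (1 and 4 against control1, 2 and 2 against control2, 0 and 2 against each), and the first enzyme gene of the pathway, CPS1, read 8.82 and 9.05 in control1, 8.26 and 8.28 in control2 and 5.9 and 4.55 under ABA, and fell by 3.38 ± 0.37. The ethylene receptor genes ETR2 (-0.48, -0.47, -0.5) and ETR3 (-0.58, -0.56, -0.61) and the signalling gene EIN2 (-0.45, -0.54, -0.36) fell, with 0 rises and 3 falls among 7 ethylene genes (0 and 4 against control1, 1 and 3 against control2). The brassinosteroid regulator gene BZR1 fell by 1.33 ± 0.14 and the receptor gene BRL1 rose by 1.47 ± 0.23.

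Jasmonate genes fell more often than they rose, with 4 rises and 18 falls among 35 (4 and 20 against control1, 3 and 17 against control2) and a median of -0.66 (-0.99 against control1 and -0.7 against control2). The allene oxide synthase genes AOS3 and AOS4, which lie next to each other in the RefSeq gene order, moved in opposite directions. AOS3 read 7.3 and 7.06 in control1, 6.73 and 5.74 in control2 and 12.22 and 12.28 under ABA, and rose by 5.55 ± 0.41 (adjusted p = 6.07e-07). AOS4 read 10.62 and 10.34 in control1, 12.03 and 11.39 in control2 and 6.24 and 5.16 under ABA, and fell by 5.39 ± 0.47 (adjusted p = 2.33e-06). By the rule of the rankings that hold these genes, both ABA arrays lay above all controls for AOS3 and below all controls for AOS4. The changes of AOS3 and AOS4 against the other hormones were 4.62 and -5.07. LOX3, a lipoxygenase gene that is on the list by its name, read 8.89 and 8.02 in control1, 10.21 and 9.28 in control2 and 6.12 and 5.38 under ABA, and fell by 3.35 ± 0.44. Its part in jasmonate synthesis was not tested. The repressor gene JAZ7 fell by 1.29 ± 0.17 (-1.52 against control1 and -1.06 against control2).

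Most DNA replication genes fell, by unequal amounts. Those named below are among the larger falls, and the 1 rise and the 6 members without a call are not named. Of 28 genes, 1 rose and 21 fell (1 and 19 against control1, 2 and 19 against control2), 1 higher and 17 lower against each control set, and the median was -0.78 (-0.84 against control1 and -0.91 against control2). PCNA, the sliding clamp of the replication fork, read 10.98 and 10.97 in control1, 10.99 and 11.12 in control2 and 7.95 and 8.06 under ABA, and fell by 3.0 ± 0.15 (adjusted p = 2.02e-08). RPA1B, which encodes a subunit of the protein that binds single-stranded DNA, read 9.79 and 9.81 in control1, 9.03 and 9.14 in control2 and 5.41 and 5.76 under ABA, and fell by 3.86 ± 0.26. The genes of the helicase that opens the DNA, MCM4 (-3.15, -3.17, -3.12), OsMCM6 (-2.91, -2.76, -3.05), MCM5 (-2.57, -2.5, -2.64) and MCM2 (-2.38, -2.45, -2.31), fell as well. MCM4 read 9.52 and 9.46 in control1, 9.31 and 9.57 in control2 and 6.42 and 6.22 under ABA. In PCNA and MCM4 the 4 controls lay close together and both ABA arrays below them. RPA1B also lay below all controls under ABA, but its control sets differed, with control2 minus control1 at -0.71 (adjusted p = 0.0376). Both ABA arrays lay outside the control range for 61.2% of all tested probe sets. The DNA methyltransferase genes CMT3 (-2.35, -2.67, -2.02) and MET1 (LOC4342575; -2.42, -2.51, -2.33) also fell, in a chromatin list that gave 3 rises and 3 falls among 10 (1 and 2 against control1, 3 and 3 against control2, 1 and 2 against each), with the Polycomb gene EZ1 (0.76, 0.77, 0.74) higher. Of 5 histone genes, 0 rose and 2 fell (0 and 2 against control1, 0 and 3 against control2), with H2B.10 (-1.19, -1.08, -1.31) the larger fall. Cyclins and cyclin-dependent kinases gave 4 rises and 13 falls among 40 (4 and 14 against control1, 3 and 13 against control2), a share of falls near that of all named genes. Among the falls were the D-type cyclin genes CYCD5-1 (-1.61, -1.25, -1.98), CYCD3-1 (-1.58, -1.4, -1.75) and CYCD2-2 (-1.14, -1.34, -0.94). D-type cyclins act on entry into the cell cycle. The kinase gene CDC2-2 (-2.25, -2.79, -1.72) and the cyclin gene CYCP4-1 (-1.75, -1.89, -1.6) fell too. The 4 rises and the 23 members without a call are not named here, so these falls do not describe the list.

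Falls prevailed in 3 lists of cell wall genes. Expansins, which loosen walls during growth, gave 1 rise and 14 falls among 23 (1 and 15 against control1, 3 and 13 against control2), with a median of -1.03 (-1.38 against control1 and -0.82 against control2). EXP2 read 10.68 and 10.58 in control1, 10.9 and 11.15 in control2 and 6.87 and 7.11 under ABA, and fell by 3.84 ± 0.19. EXPB11 read 11.8 and 11.92 in control1, 11.53 and 11.41 in control2 and 8.02 and 7.62 under ABA, and fell by 3.85 ± 0.22. Further falls were those of EXP8 (-3.64, -3.96, -3.32), EXPB3 (-3.53, -3.61, -3.44) and EXPB6 (-2.93, -3.18, -2.68). Enzymes that cut or rejoin xyloglucan and other glucans gave 0 rises and 8 falls among 11 (0 and 8 against control1, 0 and 7 against control2), with a median of -1.29 (-1.33 against control1 and -0.85 against control2), among them GLU14, GLU8 (-1.54, -1.66, -1.41), GLU13 (-1.53, -1.7, -1.35) and XTH8 (-1.29, -1.33, -1.25). Of 32 genes for cellulose and other wall polysaccharides, 5 rose and 19 fell (5 and 21 against control1, 6 and 17 against control2). The cellulose synthase genes CESA4 (-1.69, -1.49, -1.9) and CESA1 (-1.18, -1.22, -1.15) fell, and UGD4, a UDP-glucose dehydrogenase gene, read 13.65 and 13.68 in control1, 13.38 and 13.48 in control2 and 11.19 and 11.12 under ABA, and fell by 2.39 ± 0.11. CslF8, of the family that makes mixed-linkage glucan, fell by 3.98 ± 0.31, whereas CSLA5 rose. Phenylpropanoid and lignin genes gave 3 rises and 14 falls among 25 (4 and 12 against control1, 4 and 16 against control2), with CAD8A (-2.97, -2.76, -3.18), 4CLL7 (-2.45, -2.37, -2.53) and 4CL5 (-1.39, -1.45, -1.34) lower and the laccase gene LAC3 (2.39, 2.67, 2.1) higher. Small GTPases and other vesicle transport genes gave 2 rises and 16 falls among 22 (2 and 16 against control1, 2 and 14 against control2), among them RGP3 (-1.44, -1.6, -1.29) and Rac1 (-1.07, -1.13, -1.01).

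Most measured ribosomal protein genes fell by small amounts. Of 25 ribosomal protein genes, 0 rose and 21 fell (0 and 21 against control1, 1 and 19 against control2), and 19 fell against each control set, with a median of -0.48 (-0.57 against control1 and -0.45 against control2). RPS27AA read 14.62 and 14.85 in control1, 14.61 and 14.56 in control2 and 13.82 and 13.84 under ABA, and fell by 0.83 ± 0.1 (adjusted p = 3.64e-05). RPL11 (-0.74, -0.86, -0.62) and RPS10 (-0.72, -0.86, -0.59) fell by less than 1 log2 unit as well. Initiation and elongation factors gave 0 rises and 8 falls among 11 (0 and 8 against control1, 0 and 8 against control2), with eIF-4A-3 (-0.98, -1.11, -0.85), eIF3k (-0.84, -0.96, -0.71) and EF-Ts (-0.65, -0.64, -0.66). These lists lie at high levels on the array, with control medians of 13.9 and 12.6, and at 11 and over rises made up 29.6% of calls of all probe sets. Of 32 proteasome and ubiquitin genes, 1 rose and 15 fell. Against control1 alone 23 fell and against control2 alone 13. The 19S subunit genes RPN1A (-0.83, -0.96, -0.71) and RPN2 (-0.65, -0.61, -0.7) and the ubiquitin-related gene RUB2 (-1.32, -1.23, -1.4) fell, and the ubiquitin ligase gene PUB4 (0.81, 0.71, 0.91) rose. Autophagy genes gave 4 rises and 0 falls among 7 (5 and 0 against control1, 4 and 0 against control2), with a median of 0.48 (0.52 against control1 and 0.44 against control2). ATG4B, a protease gene that processes ATG8, read 10.51 and 10.44 in control1, 10.5 and 10.63 in control2 and 11.52 and 11.78 under ABA, and rose by 1.12 ± 0.12, and ATG8D (1.03, 1.03, 1.02), ATG8B (0.64, 0.55, 0.72) and ATG8C (0.48, 0.52, 0.44) rose with it.

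Among chloroplast genes, most of those for pigment synthesis and carbon fixation fell. Of 13 genes on the chlorophyll synthesis list, 2 rose and 11 fell (2 and 8 against control1, 2 and 8 against control2, 2 and 7 against each), with a median of -0.8 (-0.96 against control1 and -0.83 against control2). The rises were those of NOL, which takes part in chlorophyll breakdown, and HO1, a haem oxygenase gene of phytochrome pigment synthesis. PORA fell the most, and PORB (-1.61, -1.33, -1.88), CHLD (-1.37, -1.26, -1.48) and GSA (-1.16, -1.11, -1.2) followed. PORB read 12.62 and 12.64 in control1, 12.97 and 13.39 in control2 and 11.4 and 11.21 under ABA. Calvin cycle genes gave 0 rises and 6 falls among 7 (0 and 6 against control1, 1 and 6 against control2), with a median of -0.71, among them the Rubisco activase gene rca (-1.17, -1.08, -1.27) and the aldolase gene FBA1 (-0.71, -0.84, -0.59). Light-harvesting and photosystem genes gave 0 rises and 2 falls among 5 (0 and 2 against control1, 0 and 3 against control2), LHCP (-0.88, -0.84, -0.91) and RCABP69 (-1.13, -1.01, -1.26), while CAB2R read 15.83 and 15.86 in control1, 15.93 and 16.07 in control2 and 15.7 and 15.74 under ABA, which did not pass (adjusted p = 0.0597). Chlorophyll breakdown genes NYC1, SGR, RCCR1 (1.84, 1.96, 1.73) and NOL (1.4, 1.51, 1.28) rose, and the values of SAG12 ranged widely among the controls (7.46 to 11.44) and did not pass (adjusted p = 0.105).

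**Figure D4:**
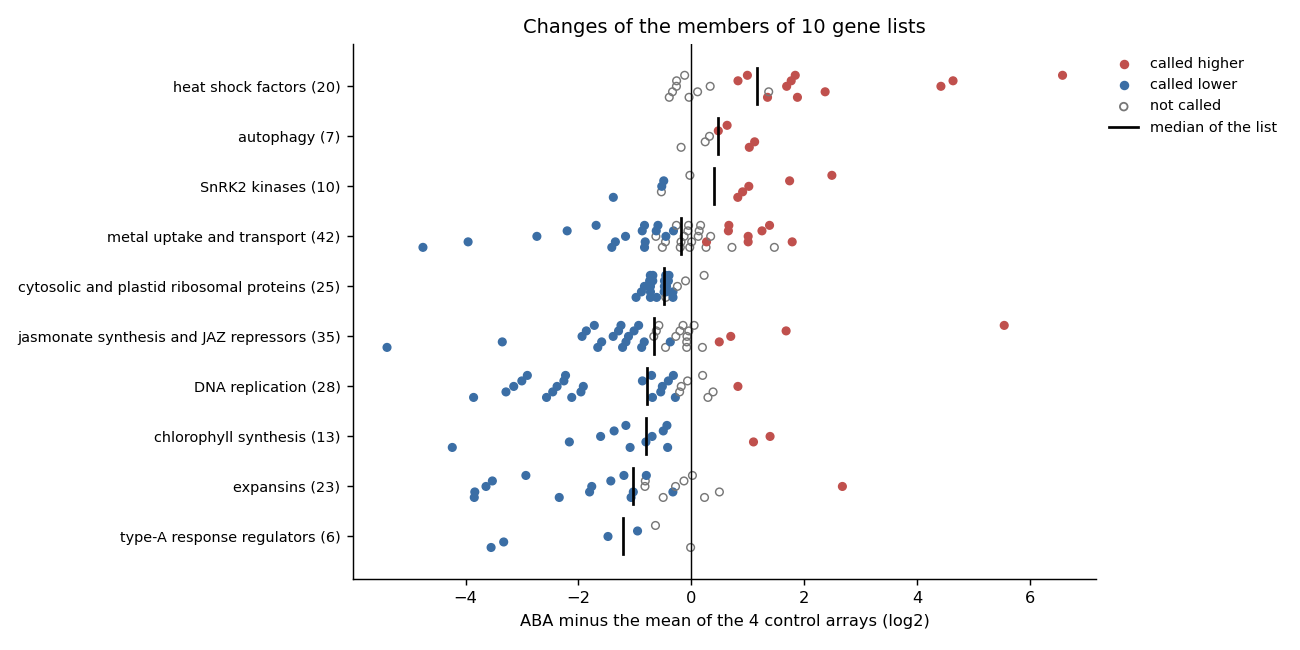
Change against the 4 controls (log2) of each tested member of 10 gene lists, with filled points for calls and a bar at the list median. DNA replication and expansin genes spread down to almost -4, ribosomal protein genes lie in a narrow band around -0.48, and the jasmonate list holds both AOS3 at 5.55 and AOS4 at -5.39.

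Sugar genes split by member. Among 21 sugar transport genes, 6 rose and 7 fell (6 and 7 against control1, 6 and 5 against control2). The SWEET sugar transporter family held SWEET12 (4.43, 4.45, 4.41), SWEET1B (2.86, 2.79, 2.92) and SWEET16 (2.81, 2.23, 3.4) besides SWEET15. SWEET12 read 2.26 and 2.23 in control1, 2.27 and 2.3 in control2 and 6.35 and 7.03 under ABA. The hexokinase gene HXK5 (-1.09, -1.24, -0.93) fell. Of 25 sucrose, trehalose and raffinose genes, 6 rose and 7 fell (5 and 6 against control1, 7 and 7 against control2). The sucrose synthase genes went apart, as SUS4 rose and SUS1 (-1.65, -1.88, -1.43) fell. TPP1, a trehalose phosphatase gene, read 9.67 and 9.44 in control1, 9.75 and 9.29 in control2 and 6.61 and 6.66 under ABA, and fell by 2.91 ± 0.24. The invertase gene NIN1 (2.03, 1.9, 2.17) and the sucrose phosphate synthase gene SPS4 (1.36, 1.2, 1.52) rose. Starch genes gave 4 rises and 1 fall among 8 (4 and 1 against control1, 4 and 1 against control2). The branching enzyme gene Sbe1 (1.06, 1.14, 0.98), the amylase gene AMY1.5 (2.15, 1.96, 2.33) and the list members SS1 (3.17, 2.91, 3.43) and SSII-1 (1.2, 0.64, 1.75) rose, and SS2 (-1.18, -1.51, -0.86) fell. Of 8 proline and polyamine genes, 3 rose and 2 fell (3 and 3 against control1, 4 and 1 against control2). P5CS2, which encodes the first enzyme of proline synthesis, read 8.77 and 9.1 in control1, 9.24 and 9.55 in control2 and 11.7 and 11.86 under ABA, and rose by 2.62 ± 0.22, and its paralog P5CS1 (1.31, 1.2, 1.41) rose too. The polyamine genes SAMDC (-0.47, -0.44, -0.5) and ADC1 (-0.7, -0.96, -0.44) fell.

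Uptake genes moved in both directions, and the shares that fell, 38.1% for metals, 33.3% for nitrogen and 35% for aquaporins, were near that of all named genes. Of 42 metal transport genes, 8 rose and 16 fell (10 and 16 against control1, 7 and 17 against control2, 5 and 14 against each). Besides ZIP3 (LOC4336971) and IRT1, the manganese transporter gene NRAMP5 read 10.58 and 10.38 in control1, 10.24 and 10.05 in control2 and 7.9 and 7.25 under ABA, and fell by 2.74 ± 0.22, and the copper transporter gene COPT1 (-2.2, -2.04, -2.36) and YSL12 (-1.69, -1.44, -1.93) fell. MTP7, of a family of metal efflux transporters, rose by 1.79 ± 0.14. Zinc transporter genes went both ways, since another gene, ZIP3 (LOC4338051; 1.01, 1.48, 0.54), and ZIP4 (1.25, 1.95, 0.56) rose against the 4 controls and control1 but did not pass against control2 (adjusted p = 0.233 and 0.111). Both were named after their values were seen. Of 15 nitrogen genes, 1 rose and 5 fell (0 and 7 against control1, 1 and 5 against control2), with the ammonium transporter gene AMT3-3 (-2.26, -2.12, -2.4), the glutamine synthetase gene GS1;1 (-0.82, -1.06, -0.57) and the nitrate uptake partner gene NAR2.2 (-0.86, -1.33, -0.38) lower besides DUR3 and NRT2.3. Against the other hormones AMT3-3 differed by -0.96. Phosphate genes gave 5 rises and 4 falls among 15 (6 and 4 against control1, 5 and 4 against control2). The transporter gene PHT1-2 read 5.15 and 5.6 in control1, 5.72 and 5.66 in control2 and 7.42 and 8.94 under ABA, and rose by 2.65 ± 0.35, while PHT1-1 (-0.9, -0.59, -1.2) fell. The phosphate sensor genes SPX2 (2.37, 2.53, 2.22) and SPX5 (2.31, 3.05, 1.56) rose. Potassium and sodium genes gave 8 rises and 6 falls among 20 (8 and 9 against control1, 8 and 4 against control2), with the channel gene KCO2 (3.11, 3.03, 3.2) and the transporter gene HAK25 (1.93, 1.8, 2.07) higher and HAK17 (-2.17, -1.88, -2.46) lower. Among 20 aquaporin genes, 3 rose and 7 fell (3 and 9 against control1, 5 and 7 against control2). TIP3-1 and TIP3-2 were 2 of the rises, and the silicon channel genes Lsi1 (-2.35, -2.06, -2.65) and Lsi6 (-2.24, -2.25, -2.23) were lower.

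Stress and defence lists were mixed. Of 45 antioxidant genes, 9 rose and 11 fell (8 and 12 against control1, 10 and 14 against control2, 4 and 10 against each), with the glutaredoxin genes GRXC15 (-3.4, -3.24, -3.57), GRXC10 (-2.4, -2.21, -2.58) and GRXS2 (-1.33, -1.42, -1.24) lower and GRXC7 (1.15, 1.08, 1.23) higher. Outside the lists the nucleoredoxin gene OsNrx2 read 9.07 and 10.06 in control1, 9.01 and 8.58 in control2 and 13.7 and 13.73 under ABA, and rose by 4.54 ± 0.33. Of 6 glutathione S-transferase genes, 4 rose and 1 fell (4 and 2 against control1, 4 and 1 against control2). GST1 read 9.19 and 10.03 in control1, 10.05 and 10.05 in control2 and 12.35 and 12.7 under ABA, and rose by 2.7 ± 0.25 and it differed from the other hormones by 0.78. GSTU6 rose by 1.57 ± 0.31, and its difference from the other hormones, 0.41, did not pass (adjusted p = 0.25). Disease resistance and pathogenesis-related genes gave 2 rises and 8 falls among 18, but 6 rises and 6 falls against control1 and 0 rises and 9 falls against control2. The NPR1-like genes NH1 (-1.28, -1.63, -0.93), NH3 (-1.66, -1.33, -2.0), NH4 (-1.31, -1.29, -1.33) and NH5 (-1.16, -1.44, -0.89) fell against both sets. Clock and flowering genes gave 5 rises and 1 fall among 16 (9 and 2 against control1, 4 and 1 against control2, 3 and 1 against each), with GI (0.54, 0.77, 0.31) and PRR73 (0.29, 0.34, 0.23) higher by small amounts and GHD8 (-1.77, -0.96, -2.58) lower. MYB genes gave 2 rises and 2 falls among 12 (2 and 4 against control1, 3 and 4 against control2). MADS box genes gave 2 and 4 among 12 (3 and 3, 2 and 3). Lipid genes gave 2 and 3 among 9 (2 and 3, 2 and 2), and diterpenoid phytoalexin genes 1 and 2 among 14 (1 and 2, 0 and 1). The shares called were 33.3%, 50.0%, 55.6% and 21.4% in this order, against 55.9% of all named genes.

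Some changes depended on which water controls were used. HOX24 read 7.96 and 9.19 in control1, 2.86 and 2.68 in control2 and 13.23 and 12.93 under ABA, so its rise was 4.51 against control1 and 10.31 against control2. The carotenoid synthesis gene PSY3 read 11.77 and 12.22 in control1, 8.95 and 8.66 in control2 and 13.49 and 13.25 under ABA, with changes of 1.37 and 4.56. CIPK16 read 7.9 and 8.3 in control1, 5.75 and 4.52 in control2 and 8.86 and 8.6 under ABA, and its change against control1, 0.63, did not pass (adjusted p = 0.188). These genes were higher in control1 than in control2. GLT2 was the reverse case, at 6.09 and 5.35 in control1, 7.63 and 8.5 in control2 and 8.94 and 9.5 under ABA, with changes of 3.5 and 1.15. The falls of PDX12 (-1.39, -0.57, -2.22) and RH2 (-2.02, -1.16, -2.87) were larger against control2. Besides ABA1, CIPK16, ZIP4 and ZIP3 (LOC4338051), the genes named above that missed the threshold against a single set were GLT2 (adjusted p = 0.202), NAR2.2 (0.139), ADC1 (0.166), EIN2 (0.125) and PRR73 (0.0865) against control2, and PDX12 (0.222) against control1. The low-oxygen list showed the same split. Its 6 genes gave 1 rise and 1 fall against the 4 controls, 1 rise and 4 falls against control1, and 1 rise and 1 fall against control2, with medians of -0.36, -1.99 and 0.18. The haemoglobin gene NSHB1 read 11.16 and 11.43 in control1, 6.88 and 6.52 in control2 and 7.41 and 6.37 under ABA, and its relative NSHB2 read 12.33 and 12.46 in control1, 7.8 and 7.45 in control2 and 8.96 and 8.06 under ABA. PDC1, a pyruvate decarboxylase gene named here after its values were seen, read 11.03 and 10.06 in control1, 4.76 and 2.8 in control2 and 6.2 and 8.18 under ABA. For NSHB1 and NSHB2 the ABA arrays lay near control2 and below control1, and for PDC1 they lay between the sets.

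**Figure D5:**
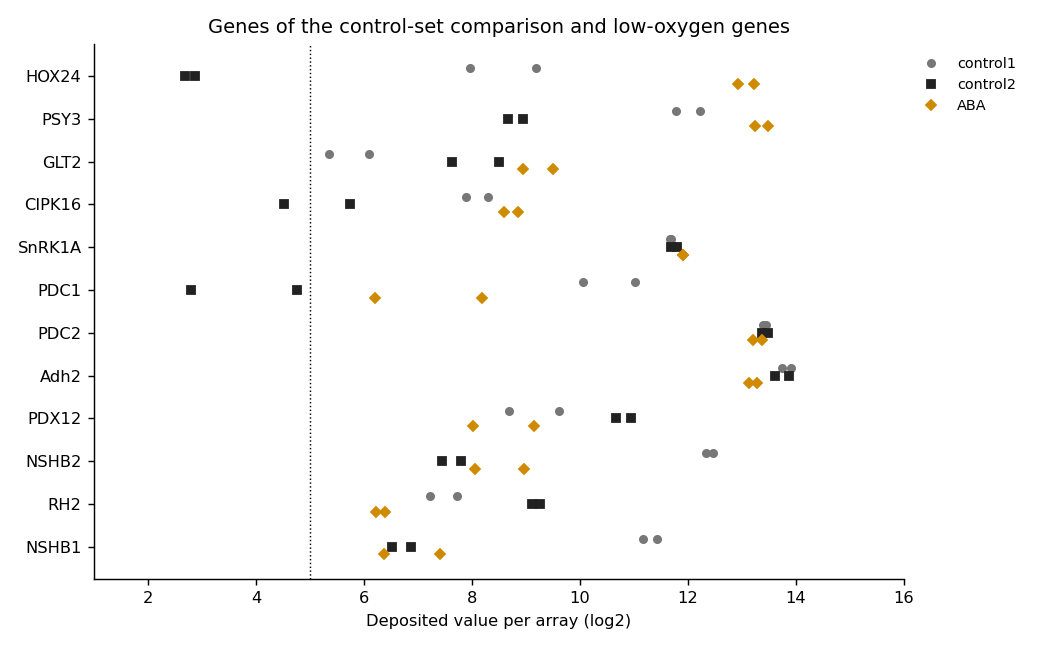
Deposited log2 value in each ABA and control array for the 6 genes whose changes against control1 and control2 differed most among named genes called against the 4 controls, and for the tested low-oxygen genes. Control1 (circles) and control2 (squares) stand apart for HOX24, PDC1, NSHB1 and NSHB2, and lie together for PDC2 and Adh2.

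The labels give seedlings as the tissue, and markers of both organs were read in them. The mean log2 value over 25 root-associated genes was 10.3 to 10.6 in the 4 controls, 8.97 to 8.99 under ABA and 9.73 to 10.3 in the arrays of the other hormones. Of these genes 1 rose and 17 fell (1 and 18 against control1, 1 and 16 against control2), with a median of -0.83 (-0.88 against control1 and -0.77 against control2). Over 8 green-tissue genes the mean was 13 to 13.4 in the controls, 11.6 to 11.9 under ABA and 12.4 to 13.2 under the other hormones, and 0 rose and 7 fell (0 and 7 against control1, 0 and 8 against control2), with a median of -1.13 (-1.02 against control1 and -1.33 against control2). Markers of both organs were thus lower under ABA than in every other array, beside the falls of uptake and chloroplast genes, which share members with these lists. The part of organ shares in those falls was not tested. Of 11 seed and embryo markers on the array 3 were tested, and 1 of them rose.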

How the data were processed

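Rice seedling RNA from 16 arrays was measured on the Affymetrix rice array. The deposited log2 values, 1 per probe set and array, are the authors' GCRMA output, as named by the submitters' processing notes. That method subtracts background, normalizes arrays together and combines the probes of a set, its version is not given in the sources used here, and values near the bottom of the scale depend on it. The log base was taken from the range of the values. Array medians ran from 2.94 to 3.09, and the number of arrays limits the precision.

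Control and reporter probe sets (187 of 57381) were left out. Of 57194 rice probe sets 22436 had 1 gene in the platform annotation, 95 several and 34663 none given, and the former stood for 17905 genes, all matched in the RefSeq table (ASM3414082v1), 2454 of them named. Of the tested genes 2191 had a name.

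The 24100 probe sets above 5 in at least 2 arrays were fitted with limma 3.58.1 in R 4.3.3 (lmFit, eBayes with an intensity trend, two-sided, Benjamini-Hochberg over all tested probe sets). Controls were pooled in a fit of 7 groups with 9 residual degrees of freedom, and kept apart in a fit of 8 groups with 8. The procedure was tested on simulated data. Lists were patterns on gene names, from which wrongly caught names were removed by name. They have no test of their own here. The probe set with the highest mean stood for a gene.

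Members, lists and rules were chosen with earlier results of these data known. Named genes were the 15 largest rises and 15 largest falls (named, outside the LEA and clade A lists, called against all controls and each set, at least 2-fold, outside the control range), the 2 largest of each direction per level, up to 5 per list with the smallest p, and up to 3 per direction with the largest difference between control sets. Of the 307 genes this allows, those described were picked with their values known. A planned search of promoters for motifs was not run, since no promoter sequences were used here. The replicate numbers of ABA and control arrays shared no deviation (r = 0.05 with control1 and 0.06 with control2, over probe sets), so no pairing was used.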

Additional observations from a re-analysis of the deposited data

Results flagged for a closer look

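For 7 of 211 named genes 1 of the 4 control arrays stood far from the others. The gap of that array to its nearest neighbour, divided by the range of the 4, was above the 95% critical value of Dixon's test. Chance exceeds that value in about 1 of 20 groups of independent values from 1 population. The 4 controls came from separate sets, which differed in 21.1% of tested probe sets, and the genes were picked with their values known. The count of 7 of 211 therefore cannot be compared with that rate. The ratio was 0.973 for GST1 (control values 9.19, 10.03, 10.05 and 10.05), 0.918 for IAA24 (10.45, 10.46, 10.48 and 10.8), 0.916 for MFT1 (5.14, 5.21, 5.24 and 6.31), 0.887 for BHLH148 (7.71, 8.37, 8.45 and 8.45), 0.866 for PCNA (10.97, 10.98, 10.99 and 11.12), 0.833 for MTP7 (3.37, 3.52, 3.54 and 3.55) and 0.831 for GLU8 (8.46, 8.5, 8.54 and 8.92). In each of these genes both ABA arrays lay outside the range of the controls. That held for 61.2% of all tested probe sets, and the rules that picked the genes favour it.

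PDC1 was called in opposite directions against the control sets, by -3.36 against control1 and 3.4 against control2. Control2 minus control1 was -6.76, with control values of 2.8, 4.76, 10.06 and 11.03.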

How the results depend on the processing

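The count of probe sets called against the 4 controls, 11585, lay between 9692 (only the compared arrays in the fit) and 14903 (array weights) under quantile normalization, median centring, no filter, a floor of 7, other variance priors, array weights and the replicate block. Leaving out 1 array gave 7803 to 11704 against the 4 controls, 9840 to 10837 against control1, 8920 to 10006 against control2 and 7470 to 11709 against the other hormones, the lowest being without ABA replicate 2 in all 4 cases. A minimum change of 2-fold left 5227, 5865, 5528 and 4745. With the replicate number as a block the counts were 11545, 12990, 12155 and 11941, so the block moved none by 1.5 times. The share of rises among calls depended on how levels were grouped. Under 5 it was 77.7%, but 84.7% with groups set by the controls, 60.1% by the 6 ABA and control arrays and 58.6% with the filter in the other-hormone arrays alone. The 6-array grouping gave 47.3% at 5 to 7 and 45.8% at 9 to 11, and at 11 and over the control and 6-array groupings gave 27.1% and 36.1%. The filter in the other-hormone arrays alone drops the probe sets that passed only through the ABA arrays, so the excess of rises under 5 shrinks by construction. It also drops some that needed the control arrays to pass.

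PDC1, at 0.02, reversed to -2.74 with array weights and -3.36 against control1. Leaving out 1 array gave -1.43 to 1.31, with -0.97 without ABA replicate 2 and -0.78 and -1.43 without control2 replicate 1 and 2. NSHB1 and NSHB2 went from -2.11 and -1.50 to 0.19 and 0.89 against control2. The cause was not tested. Of 211 named genes 186 kept their direction and their side of the threshold in each setting, and 20 lost their call in at least 1 setting, 18 of them without ABA replicate 2.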
